A study of Schizosaccharomyces pombe with 4 samples.

Results

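The genes described here are 8 cell cycle genes of the fission yeast Schizosaccharomyces pombe, a rod-shaped yeast that divides by medial fission. Their starts were set against binding sites of 3 transcription factors mapped by chromatin immunoprecipitation and sequencing (ChIP-seq). They are plo1 and ark1 (mitotic kinases), cdc25 (a mitotic phosphatase), spo12 (a Spo12 family nuclear protein), slp1 and apc10 (the anaphase-promoting complex, APC), klp5 (a spindle motor) and mde6. The RefSeq annotation calls the mde6 product a muskelin, so mde6, like klp5 and spo12, is no kinase, phosphatase or APC gene in the strict sense. They make up 8 of the 5113 annotated nuclear protein-coding genes and were chosen because peaks were already known to lie at them. A peak was assigned to a gene when its centre lay from 1000 bp upstream to 250 bp downstream of the annotated 5′ end, which is called in reach below.

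The 3 tagged strains carried Fkh2 (strain JLP1586), Sak1 (JLP1792) or Sep1 (JLP1670) fused at the C terminus to TAP, a tag that IgG beads bind. The control strain, F108, carried no tag and went through the same immunoprecipitation. All cultures were asynchronous and grown in YES, a rich medium. The Sep1-TAP culture alone was labelled with a treatment, 45 min in 1 mM bortezomib, which inhibits the proteasome, so the Sep1 list differs from the others in treatment as well as in factor. Each library pooled 2 biological experiments, so there is 1 peak list per factor and no error between replicates. In an asynchronous culture only part of the cells is in mitosis, and binding in few cells cannot be told apart from weak binding in many. The lists hold 152 Fkh2, 47 Sak1 and 11 Sep1 peaks from libraries of 1042990, 795148 and 906632 tags.

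As background, forkhead factors control a group of fission yeast transcripts that rise at the end of G2 and in mitosis. Fkh2 and Sep1 are such factors and recognise words close to GTAAACA. Sak1 belongs to the RFX family, whose members are known for binding X-boxes, inverted repeats in which a half-site close to GTTGCCA is followed by its reverse complement. The mitotic genes of the set act in sequence. Cdc25 activates the kinase Cdc2 by removing an inhibitory phosphate, and polo kinase (Plo1) and Aurora B kinase (Ark1) act on spindle, kinetochores and cytokinesis. Slp1, the Cdc20-type activator, and Apc10, a substrate recognition subunit, direct the APC to the proteins whose destruction starts anaphase. Klp5, a kinesin-8 motor, controls the length of spindle microtubules.

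The sequences between the outer edge of the peaks and the gene start are shown so that the words described further on can be read in place. Each is written 5′ to 3′ on the strand of the gene and ends 1 base before the annotated 5′ end (for mde6 the stretch is all of the space to the divergent gene pun1). Capitals mark the forkhead word GTAAACA in either orientation and its close forms, which are GTAAATA, the form with A first, ATAAACA, and the form with both changes, ATAAATA. At genes with a Sak1 peak they also mark the best match to the RFX repeat, a run of 14 bases, within 150 bp of the Sak1 centre. The best match at apc10, with 9 of the 14 bases, is left unmarked, so the marking itself differs between the genes. Coordinates are of assembly ASM294v3, and the sequences are from its RefSeq copy.
plo1, I:2164100-2164230, plus strand: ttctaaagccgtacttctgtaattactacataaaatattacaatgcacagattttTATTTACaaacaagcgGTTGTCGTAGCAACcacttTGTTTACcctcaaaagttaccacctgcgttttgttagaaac
mde6, I:3696436-3696564, plus strand: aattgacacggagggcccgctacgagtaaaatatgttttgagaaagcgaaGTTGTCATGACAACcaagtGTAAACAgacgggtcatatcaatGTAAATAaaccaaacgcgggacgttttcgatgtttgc
spo12, I:2849273-2849439, minus strand: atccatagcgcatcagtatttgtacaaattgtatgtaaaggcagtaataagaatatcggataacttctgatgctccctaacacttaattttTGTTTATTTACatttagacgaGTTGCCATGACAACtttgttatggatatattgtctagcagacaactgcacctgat
slp1, I:997636-997809, minus strand: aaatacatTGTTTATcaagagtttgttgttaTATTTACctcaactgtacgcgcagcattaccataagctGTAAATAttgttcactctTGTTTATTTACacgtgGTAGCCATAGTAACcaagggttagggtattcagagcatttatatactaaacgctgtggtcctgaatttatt
klp5, II:1712118-1712237, minus strand: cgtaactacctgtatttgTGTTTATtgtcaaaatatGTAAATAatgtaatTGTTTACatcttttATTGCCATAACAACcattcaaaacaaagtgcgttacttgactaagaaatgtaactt
ark1, III:141520-141629, plus strand: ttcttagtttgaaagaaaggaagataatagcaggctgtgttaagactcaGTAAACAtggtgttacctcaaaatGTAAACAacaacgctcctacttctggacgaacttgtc
apc10, II:1973292-1973361, plus strand: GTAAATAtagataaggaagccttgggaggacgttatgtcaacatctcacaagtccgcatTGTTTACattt

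The centres of both peaks at cdc25 lie in the annotated 3′ UTR of hxk1, so only the sites themselves are shown. They are given in the order in which they stand on the minus strand. The forkhead site of slp1, which spans the first transcribed bases, is given in the same way.
cdc25 distal forkhead site, I:482772-482800, minus strand: tcttatgtattTGTTTACacatacacaac
cdc25 repeat site, I:482743-482772, minus strand: catttggcGTTGCTAGGGCAACaaatcaga
cdc25 proximal forkhead site, I:482686-482714, minus strand: tgtatggacatGTAAACAaacatacaaga
slp1 forkhead site, I:997618-997646, minus strand: ctgaatttattGTAAACAaatcatctaaa

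Fkh2 and Sak1 were each listed at most of these genes, and Sep1 at none. A Fkh2 peak was in reach of 7 of the 8 genes, where 2.84% of all 5113 genes had one. A Sak1 peak was in reach of 6 of the 8, against 1.06% of all genes, and a Sep1 peak of 0 of the 8, against 0.176%. The Sep1 count is near its share of all genes and says nothing particular about these 8. Peaks of both Fkh2 and Sak1 were in reach of 5 genes (cdc25, klp5, mde6, plo1 and spo12), against 0.88% of all genes. Fkh2 alone was listed at ark1 and apc10, and Sak1 alone at slp1. Since the genes were chosen from these lists, the shares describe the choice and are not evidence about mitotic genes. The files hold only peaks that passed the caller, so a gene missing from a list may still have had tags there. The lists reached down to normalised tag counts (tags in the peak per 10000000 tags of the library) of 278 for Fkh2, 440.2 for Sak1 and 364 for Sep1.

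Of the kinase genes, plo1 had peaks of both factors and ark1 of Fkh2. At plo1 (SPAC23C11.16, I, 2164231 to 2166765) the Fkh2 peak had a normalised tag count of 1999.1 (95% Poisson interval 1737 to 2290) and ranked 24 of 152. The Sak1 peak had 1987.1 (1689 to 2322) and ranked 22 of 47. The counts were alike in size, while the rank was in the first 15.8% of the Fkh2 list and only in the first 46.8% of the Sak1 list. All such intervals cover counting error only, and the Sak1 peaks (235 bp) are wider than the Fkh2 peaks (155 bp). Centres lay 22 bp (Fkh2) and 14 bp (Sak1) upstream of the gene start, whose annotated leader before the first coding base is 9 bp.

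The plo1 site also drew tags in the untagged control. The control held 16.5 tags under the Fkh2 peak and 18.5 under the Sak1 peak, the second highest control count in each list, at 2.75 and 2.04 times the genome-wide mean for those widths. The authors' fold over the control was low there, 5.89 for Fkh2 (rank 121 of 152) and 5.25 for Sak1, the last of the 47. Against the surrounding 10000 bp the folds were 15.6 and 9.21, both above their list medians of 6.91 and 7.83. With peaks under 8 fold over the control left out, plo1 drops from both lists. What draws control tags there was not tested.

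At ark1 (SPCC320.13C, III, 141630 to 143038) the Fkh2 peak had a tag count of 1289.6 (1081 to 1527) and ranked 50.5 of 152, a tie. Its fold was 15.67 over 4 control tags, close to the list median of 4. The centre lay 33 bp upstream of the start, over the noncoding RNA gene SPNCRNA.457. The same centre was 1 bp from the middle of the nearer of the 2 GTAAACA words in the sequence above. No Sak1 peak was listed within 5000 bp.

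At cdc25 (SPAC24H6.05, I, 479228 to 482373) both factors were listed at almost the same base. The Fkh2 count was 2454.5 (2163 to 2774, rank 18 of 152) and the Sak1 count 2414.6 (2085 to 2781, rank 16 of 47). The centres were 2 bp apart, at 383 and 381 bp upstream of the annotated 5′ end, the farthest from the start of any peak at these genes. The leader of cdc25 is 833 bp, which puts the centres 1216 and 1214 bp from the first coding base. Both peaks lie wholly within hxk1 (hexokinase 1), the gene upstream on the same strand, and their centres lie in its 3′ UTR. The start of hxk1 itself is not in reach. Folds over the control were 19.96 and 14.67, over 6 and 8 control tags, near the genome-wide means of 6 and 9.08.

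By the ratio of counts, the spo12 peaks differed most between the factors among the 5 genes with both. Spo12 is known from budding yeast as part of the network that releases the Cdc14 phosphatase at mitotic exit. At spo12 (SPAC3F10.15C, I, 2845471 to 2849272) the Fkh2 count was 757.4 (599.6 to 944), rank 90 of 152 and below the list median of 894.1. The Sak1 count was 2867.4 (2507 to 3265), rank 12 of 47 and above the median of 1848.7. The 2 intervals do not overlap. The control held 1 tag under each peak, so the folds of 37.51 and 139.34 rest on almost no control signal. The Fkh2 centre lay 12 bp and the Sak1 centre 50 bp upstream of the gene start, 38 bp from each other.

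The APC genes split between the factors. At slp1 (SPAC821.08C, I, 994941 to 997635) only Sak1 was listed, with a count of 1433.7 (1183 to 1722), rank 30 of 47. Its fold was 34.83 over 2 control tags, and its centre lay 57 bp upstream of the start, over the noncoding RNA gene SPNCRNA.2439. The same centre was 940 bp upstream of the divergent gene eng1, which encodes the endo-1,3-beta-glucanase of the septum surface. The starts of slp1 and eng1 are 997 bp apart, so eng1 falls in reach by a narrow margin. No Fkh2 peak was listed within 5000 bp of the slp1 start.

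At apc10 (SPBC1A4.01, II, 1973362 to 1974265) only Fkh2 was listed, with a count of 1097.8 (905.9 to 1318), rank 64 of 152. The centre lay 7 bp downstream of the start, just inside the coding sequence, which begins 5 bp from the annotated 5′ end. The fold over the control was 8.89 over 6 control tags. The fold over the surrounding 10000 bp was 4.01, the lowest in the list and just above the 4 fold the caller required. That surrounding region also holds the strong Fkh2 peak of knh4, 2956 bp upstream, with a count of 4213.8. The knh4 site, at 3002 bp for Sak1 and 2957 bp for Sep1, was the only listed site outside reach within 5000 bp of any of the 8 genes. Whether its tags lowered the local fold at apc10 was not tested.

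At klp5 (SPBC2F12.13, II, 1709081 to 1712117) Sak1 again had the higher tag count, in the wider peak. The Fkh2 count was 834.1 (668.1 to 1029), rank 82 of 152, and the Sak1 count 2364.3 (2038 to 2727), rank 17 of 47. The intervals do not overlap. The Fkh2 centre lay 22 bp downstream of the start, in the leader of 196 bp, and the Sak1 centre 3 bp upstream of it. With a reach of 500 bp upstream and 0 bp downstream the Fkh2 peaks of klp5 and apc10 are no longer assigned. Folds were 13.51 and 38.3, each over 3 control tags. The divergent gene cay1, which encodes cactin, starts 750 bp away and had the same peaks in reach, at 772 and 747 bp upstream of its start.

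The mde6 site was the strongest of the set in both lists. At mde6 (SPAC15A10.10, I, 3696565 to 3700027) the Fkh2 count was 6668.3 (6182 to 7183), rank 2 of 152, and the Sak1 count 4401.7 (3953 to 4888), rank 1 of 47. The centres lay 5 bp apart, 53 and 58 bp upstream of the start. They lie between mde6 and the divergent gene pun1, a SUR7 family gene, whose start is 130 bp away and had the same peaks at 77 and 72 bp. The lists cannot say which of these genes a peak serves. The annotated leader of mde6 is 943 bp, which puts the centres 996 and 1001 bp upstream of its first coding base.

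**Figure D1:**
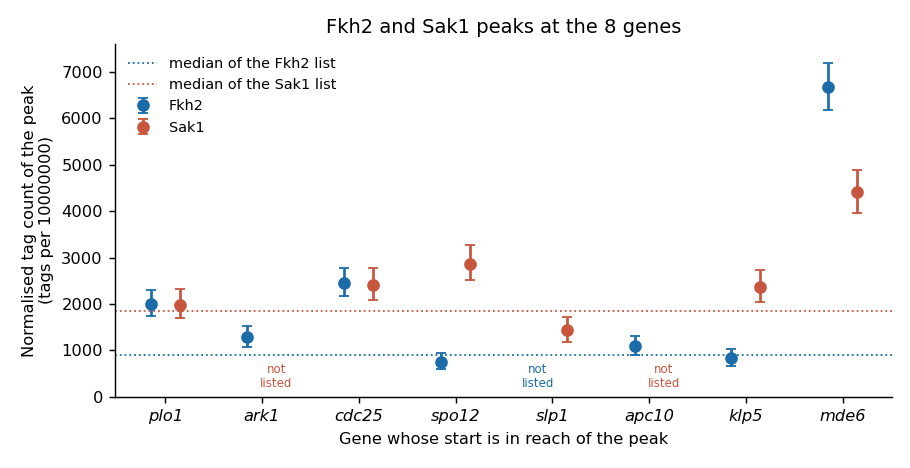
Normalised tag counts (tags per 10000000 tags of the library) of the Fkh2 and Sak1 peaks in reach of each gene, with exact 95% Poisson intervals for counting error and dotted lines at each list's median. Counts of plo1 and cdc25 are alike in both libraries, spo12 and klp5 are higher for Sak1, and mde6 stands above the rest at 6668.3 and 4401.7.

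Control tags varied widely among the 8 genes. They ran from 1 at spo12 to 16.5 at plo1 under Fkh2 peaks, and from 1 at spo12 to 22 at mde6 under Sak1 peaks. The 22 tags at mde6 were the highest control count of the Sak1 list, at 2.42 times the genome-wide mean, and left a fold of 9.78 (rank 37 of 47) for the peak with the most tags. Under the narrower Fkh2 peak the control held 8.5 tags there, and the fold was 38.18. Each control count below the genome-wide mean was then raised to that mean. All 7 Fkh2 and 6 Sak1 peaks at the genes still reached 4 fold. So did 129 of the 152 listed Fkh2 peaks and 43 of the 47 listed Sak1 peaks, so this does not set the genes apart.

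**Figure D2:**
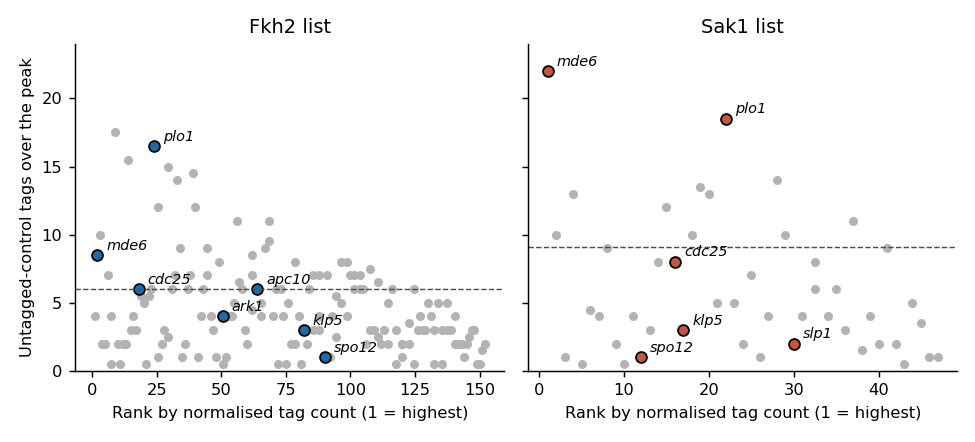
Tags of the untagged control under each peak against the peak's rank by normalised tag count, for the Fkh2 list (left) and the Sak1 list (right), with the named genes marked and a dashed line at the genome-wide mean for the peak width. In both panels plo1 lies near the top, with 16.5 and 18.5 control tags, and spo12 near the bottom with 1.

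By the balance of the factors the shared peaks of these genes ran from among the most Sak1-weighted to the Fkh2-weighted part of the series. There were 36 places where Fkh2 and Sak1 peaks overlapped by at least 1 bp, and 5 of them belong to these genes. The ratio of the Fkh2 to the Sak1 count ran from 0.241 to 3.93 over the 36, with a median of 0.978. At spo12 it was 0.264 (95% interval 0.202 to 0.343), the second lowest of the 36. At klp5 it was 0.353 (0.27 to 0.457), the fourth lowest. These values put Sak1 tags at spo12 and klp5 well above Fkh2 tags relative to the series, with intervals below 1.

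The other 3 genes were balanced or weighted to Fkh2. The ratio was 1.01 (0.814 to 1.25) at plo1 and 1.02 (0.84 to 1.23) at cdc25, places 20 and 21 of 36, so that neither departs from equal counts beyond counting error. At mde6 it was 1.51 (1.33 to 1.73), place 31 of 36. The ratio compares 2 libraries without replicates and counts tags in windows of 155 and 235 bp, and the part of that difference in width in the order was not tested. Taken after subtracting control tags, the ratios placed the same 5 genes at 3, 4, 20, 21 and 32.

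**Figure D3:**
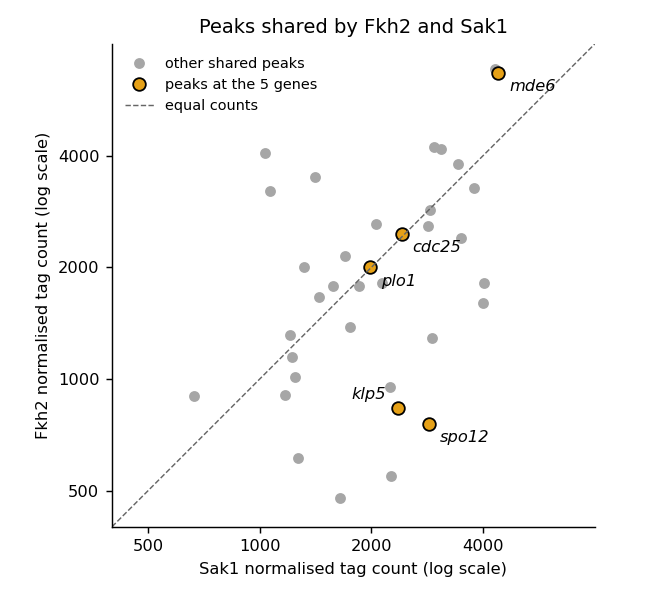
Fkh2 against Sak1 normalised tag counts (both log scales) at the 36 shared peaks, with the peaks at the 5 genes marked and a dashed line at equal counts. The points of spo12 and klp5 lie far below the line (ratios 0.264 and 0.353), plo1 and cdc25 on it, and mde6 above it at 1.51.

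Except at cdc25, the peaks sat on the gene starts. Of the 7 Fkh2 centres 6 lay within 60 bp of the annotated 5′ end, as did 5 of the 6 Sak1 centres, with median distances of 22 and 53.5 bp upstream. Distance to the start is part of the rule that assigned these peaks. The share of all listed peaks within 60 bp of a start was not counted, so this describes the genes only. Centres of the 2 factors were 2 to 38 bp apart at the 5 shared genes, and the median over all 36 shared peaks was 28 bp. Only the apc10 centre lay in coding sequence. In the Fkh2 list the 7 peaks had a median rank of 50.5 of 152, and 5 exceeded the list's median tag count. In the Sak1 list the 6 peaks had a median rank of 16.5 of 47, and 5 exceeded the median. Ranked by fold over the control, their median place moved from 35.1% to 47.9% of the Sak1 list, near its middle. In the Fkh2 list the same change moved it from 33.2% to 34.9%.

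**Figure D4:**
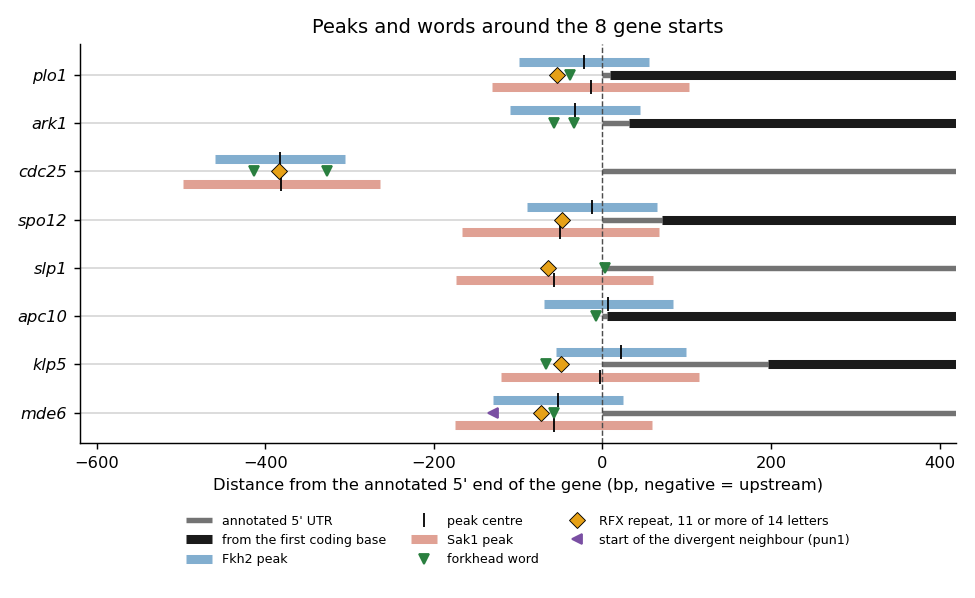
Fkh2 and Sak1 peaks drawn to scale by distance (bp) from the annotated 5′ end of each gene, with ticks at the peak centres, green triangles at GTAAACA words, diamonds at RFX repeats with 11 or more of 14 letters, a purple triangle at the start of pun1, grey for the annotated 5′ UTR and black from the first coding base. Each of the 6 genes with a Sak1 peak has a diamond under that peak, while ark1 and apc10, which have Fkh2 peaks alone, have green triangles and no diamond.

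The forkhead word was present at nearly all of these peaks. GTAAACA, searched on both strands within 150 bp of the centre, lay at 6 of the 7 Fkh2 peaks and 5 of the 6 Sak1 peaks. It lay at 73.7% of all Fkh2 peaks, 71.7% of nuclear Sak1 peaks and 13.9% of windows of the same length at all gene starts. With so few peaks, the counts at these genes are near the shares of both lists. At genes with both peaks the counts also rest on the same words. The exception in both lists was spo12, which has the forms GTAAATA and ATAAACA overlapping in its upstream sequence. The site of slp1, where no Fkh2 peak was listed, held GTAAACA 60 bp from the Sak1 centre. A forkhead word is therefore present at the only gene of the set without a listed Fkh2 peak. At klp5 the word lay 89 bp from the Fkh2 centre, outside the peak itself.

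The exact RFX half-sites were less common, but a partial match to the inverted repeat, with 11 to 13 of its 14 letters, lay under every Sak1 peak of the set. GTTGCCA or GTTACCA lay at 2 of the 6 Sak1 peaks (plo1 and spo12), against 32.6% of all nuclear Sak1 peaks and 5.3% of gene starts. With GTTGTCA and GTTGCTA added, forms that an earlier search of these peaks had found, 4 of the 6 held a word, mde6 and cdc25 being the others, against 71.7% of all nuclear Sak1 peaks and 12.7% of gene starts. The repeat searched here was GTTGCCA followed directly by its reverse complement, 14 letters that read the same on both strands and contain the half-site. It was chosen after the sequences had been seen, as was the limit of 11 matching letters.

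The best site matched 13 of the 14 letters at spo12, 12 at mde6 and cdc25, and 11 at plo1, slp1 and klp5. In gene orientation these sites read GTTGCCATGACAAC at spo12, GTTGTCATGACAAC at mde6, GTTGCTAGGGCAAC at cdc25, GTTGTCGTAGCAAC at plo1, GTAGCCATAGTAAC at slp1 and ATTGCCATAACAAC at klp5. At least 11 letters were matched in 51 of the 5113 gene start windows (0.997%), in 27 of the 46 nuclear Sak1 peaks (58.7%) and in 5 of the 116 Fkh2 peaks without a Sak1 peak (4.31%). The 6 Sak1 peaks of these genes are among the 27. At ark1 and apc10, with Fkh2 peaks alone, the best site around the Fkh2 centre matched 9 letters, a score reached or passed by 35.1% of gene starts.

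**Figure D5:**
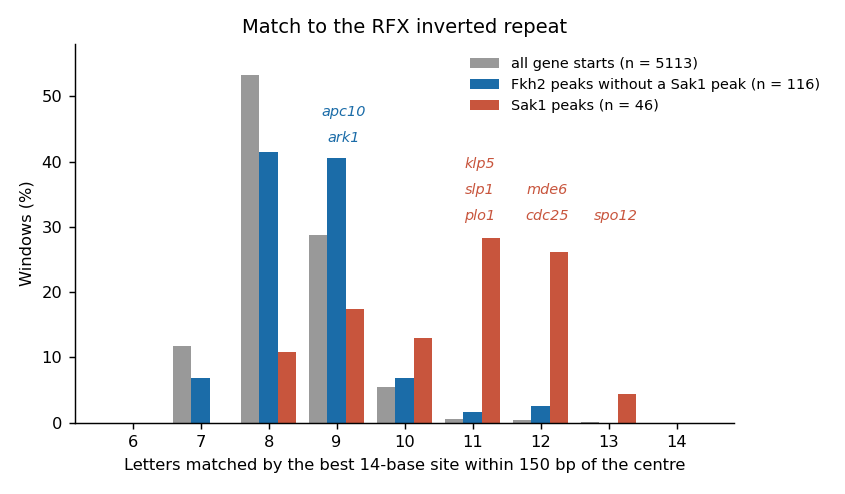
Share of windows (%) by the number of letters, of 14, matched by their best site for the RFX inverted repeat within 150 bp of the gene start or peak centre, for all gene starts, Fkh2 peaks without a Sak1 peak and all nuclear Sak1 peaks, with the 8 genes named above their score. The 6 genes with a Sak1 peak stand at 11 to 13 letters, and ark1 and apc10 at 9.

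The repeat lay close to the Sak1 centre at most of these genes. Its middle was 1.5 bp from the Sak1 centre at spo12, 3.5 bp at cdc25, 7.5 bp at slp1 and 14.5 bp at mde6, and 39.5 and 46.5 bp at plo1 and klp5. The half-site GTTACCA of plo1 stood outside the repeat and is not capitalised above. It lay 9 bp upstream of the Sak1 centre and 1 bp upstream of the Fkh2 centre. At spo12 the Fkh2 centre lay 36.5 bp from the repeat. The forkhead forms there stood 57 and 61 bp upstream of the Fkh2 centre and 19 and 23 bp upstream of the Sak1 centre. The Sak1 centre was thus the nearer to the repeat and to the forkhead forms. The Fkh2 centre was nearer the repeat than the Sak1 centre at plo1 (31.5 bp) and cdc25 (1.5 bp). It was farther at mde6 (19.5 bp) and klp5 (71.5 bp). At cdc25 both centres lay on the repeat.

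A forkhead form stood within 10 bases of the repeat at 5 of the 6 genes. Between the repeat and the nearest of the 4 forkhead forms there were 5 bases at plo1, mde6 and slp1, 7 at klp5, 10 at spo12 and 18 at cdc25. In gene orientation the forkhead form lay downstream of the repeat at plo1 and mde6 and upstream of it at the other 4. Among the other 40 nuclear Sak1 peaks 21 had a repeat of 11 or more letters, and 6 of these 21 had a forkhead form within 10 bases of it. At gene starts 16 of the 51 repeats did, which is 0.313% of all starts. The spacing was noticed in these sequences, and the limit of 10 bases equals the gap at spo12. The 5 of 6 is therefore no test against the other peaks, and the counts are given as a description.

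Other words of cell cycle promoters were seen at single genes or too widely to tell genes apart. ACGCGT, the MCB word of G1/S genes, lay at klp5 alone, 20 bp from the Fkh2 centre and within the leader, against 11.2% of Fkh2 peaks and 3.58% of gene starts. The pombe cell cycle box, searched as GNAACG and GNAACA, lay at 6 of the 7 Fkh2 and all 6 Sak1 peaks. It also lay at 65.1% of all gene starts, and at cdc25 it overlaps the RFX repeat.

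Of the other mitotic genes listed, only mik1 had a peak. In a list of 69 genes of mitotic kinases, phosphatases, the APC, securin and spindle motors, 7 of which belong to the set described here, a Fkh2 peak was in reach of 7 (10.1%) and a Sak1 peak of 5 (7.25%). Without those 7 genes, 1 of 62 had a Fkh2 peak (1.61%), where the share of all genes was 2.84%. A Sak1 or Sep1 peak was in reach of 0 of the 62, where the shares of all genes were 1.06% and 0.176%. With so few genes these counts are near the shares of all genes. The product of mik1 is a kinase that inhibits Cdc2. Its Fkh2 peak lay 108 bp downstream of the start, in the leader, with a tag count of 1198.5, rank 55 of 152, and ssb1 was in reach of the same peak.

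By class, the Fkh2 peaks reached 3 of 22 kinases and their regulators (plo1, ark1 and mik1), 2 of 15 phosphatase and exit genes, 1 of 23 genes of the APC, securin and spindle checkpoint and 1 of 9 spindle motors. Sak1 peaks reached 1, 2, 1 and 1 in the same order. Apart from mik1 all of these are among the 8 genes chosen for their peaks, so the class counts restate that choice. Of the APC class 21 genes had no listed peak, including every core subunit in it apart from apc10. The partner motor of Klp5, encoded by klp6, and the catalytic subunit gene cdc2 with its cyclin gene cdc13 were also without one. Such absences are the usual case and say nothing particular about these genes. Over all 5113 genes a Fkh2 peak was in reach of 2.84%, a Sak1 peak of 1.06% and a Sep1 peak of 0.176%.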

How the data were processed

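Peak lists for Fkh2-TAP, Sak1-TAP and Sep1-TAP were used as deposited. The submitters' processing notes name HOMER, Bowtie2 2.1.0 and SAMtools 0.1.18. The genome build was not given in the sources used here. The authors ran HOMER findPeaks, per the file headers, with the untagged library as input, at a false discovery rate of 0.001, at least 4 fold over the control and over 10000 bp around the peak, with p-values limited to 1e-04. Per the file headers, normalised tag counts are a signal scaled to 10000000 tags; control tags are a deposited signal whose values step by 0.5. Each deposited fold is a ratio for 1 peak. The deposited findPeaks score served as an alternative ranking. The deposited focus ratio, a fraction, and the deposited p-values were not used. The authors' values describe or rank peaks within a list.

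Coordinates were read on ASM294v3: chromosome names matched, and GTAAACA lay within 150 bp of 112 of 152 Fkh2 centres, against at most 19 after shifts of 1000 to 5000 bp. Genes, reach and words were handled with Python 3.11.15, pandas 2.3.3, scipy 1.17.1 and Biopython 1.88, and checked on simulated data (200 of 200 simulated peaks, planted words and planted repeats recovered each). Poisson and ratio intervals are exact at 95%. No p-value was computed: there is 1 list per factor. The 8 genes, the gene list, the words and the rule for named genes (the 8, neighbours in reach, listed genes with a peak, the nearest outside peak) were chosen with earlier results of these data known; klp6, cdc2 and cdc13 were named after their values were seen.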

Additional observations from a re-analysis of the deposited data

How the results depend on the processing

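No paired analysis was possible because each factor has 1 list. Of 47 values recomputed under alternatives, 44 held, counts to within 1.5 times. Those that held include Sep1 counts of 0, which a stricter filter cannot raise. They also include changes inside that limit, such as genes with a Fkh2 peak falling from 7 to 5 under the narrower reach. In the upper 50% of each list by tag count, genes with both factors fell from 5 to 3, without klp5 and spo12. When reach was narrowed to 500 bp before and 0 bp after the start, Fkh2 peaks reached 4 of the 69 listed mitotic genes in place of 7. With 4 RFX half-site forms in place of 2, the words lay at 4 of the 6 Sak1 peaks in place of 2, while the share of all nuclear Sak1 peaks went from 32.6% to 71.7%. Depth limits the lists: the headers give tag thresholds of 30 (Fkh2), 35 (Sak1) and 34 (Sep1), the lowest listed counts lie near them, and a gene without a listed peak may still have had tags below that level. The measures of the RFX repeat, its spacing and the ratio after subtraction were added after seeing the data.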
